A study of Mus musculus with 4 samples.

Results

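The genes described here are 7 effector genes of the osteoclast, the cell that dissolves bone: Acp5 (ENSMUSG00000001348), Ctsk (ENSMUSG00000028111), Mmp9 (ENSMUSG00000017737), Atp6v0d2 (ENSMUSG00000028238), Ocstamp (ENSMUSG00000027670), Dcstamp (ENSMUSG00000022303) and Calcr (ENSMUSG00000023964). They were found by symbol among the 33696 genes of each file, and all 7 were present. They had been selected on their UMI counts outside osteoclasts in these same libraries, so their levels by cell class are a description and carry no test. The cells came from regenerating digit tips of female C57BL/6 mice aged 6 to 8 weeks, taken after amputation, with hindlimb digits of 10 mice pooled into each of 4 droplet libraries read from the 3′ end of the RNA. There were 4 groups. Mice were fed SAR131675, an inhibitor of the lymphatic growth factor receptor VEGFR3, at 30 mg/kg in chow, or control chow (control diet). The labels give 8 days for the SAR131675 diet. In the other groups, limbs had the inguinal and popliteal lymph nodes removed (LNR) or were sham-operated (sham). For sham, the study's text names the contralateral side and GEO's label says only untreated control. Each group was 1 library and each library was its own batch in the labels, so treatment and batch cannot be told apart, and no p-value is given. Between the diet groups the pool of mice cannot be told apart from treatment either. LNR and sham shared their mice if the sham limbs were contralateral, and otherwise the same limit holds for them. Values of the 4 libraries are listed throughout in the order SAR131675 diet, control diet, LNR and sham.

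An osteoclast forms when macrophage precursors fuse and attach to bone. It seals off a space, acidifies it with a proton pump and releases enzymes that degrade the exposed matrix. Acp5 encodes tartrate-resistant acid phosphatase (TRAP), whose enzyme stain is used to mark osteoclasts in sections. Ctsk encodes cathepsin K, the protease that cuts bone collagen, and Mmp9 a gelatinase that neutrophils also store. Atp6v0d2 is a subunit of the proton pump, Ocstamp and Dcstamp are membrane proteins needed for fusion, and Calcr is the calcitonin receptor. In skin and bone, several of these genes are also known from cells that are not osteoclasts, such as cathepsin K in fibroblasts.

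The promoters of Acp5 and Ctsk are shown because these genes gave the most UMIs. Most Acp5 UMIs lay in epithelial cells, which also held most UMIs of all genes. Most Ctsk UMIs lay in connective tissue cells, which held a much smaller part of all UMIs. The windows run from 250 bases before to 50 bases after each RefSeq start in GRCm38.p6, on the strand of the gene. The RefSeq table used here gave windows for 3 of the 7 genes, and windows of Mmp9, Atp6v0d2, Ocstamp and Dcstamp were not used here. Acp5 had 3 starts on chromosome 9 (minus strand, chr9:22130549-22130848, chr9:22131816-22132115 and chr9:22135697-22135996) and Ctsk had 1 on chromosome 3 (plus strand, chr3:95498960-95499259). Capitals mark a match to the core NFAT motif TGGAAA, here on the opposite strand as TTTCCA.
Acp5, start at chr9:22130549-22130848: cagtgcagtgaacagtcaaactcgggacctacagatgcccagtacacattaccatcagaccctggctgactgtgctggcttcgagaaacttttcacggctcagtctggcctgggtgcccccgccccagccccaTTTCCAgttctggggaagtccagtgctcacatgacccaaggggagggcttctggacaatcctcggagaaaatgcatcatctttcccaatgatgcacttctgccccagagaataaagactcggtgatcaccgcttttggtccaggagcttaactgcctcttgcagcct
Acp5, start at chr9:22131816-22132115: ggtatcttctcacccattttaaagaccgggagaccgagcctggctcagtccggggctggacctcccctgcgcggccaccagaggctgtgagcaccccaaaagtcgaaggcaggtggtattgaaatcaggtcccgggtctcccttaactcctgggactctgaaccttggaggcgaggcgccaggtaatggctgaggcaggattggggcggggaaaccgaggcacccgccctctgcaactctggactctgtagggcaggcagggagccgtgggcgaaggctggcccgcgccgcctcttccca
Acp5, start at chr9:22135697-22135996: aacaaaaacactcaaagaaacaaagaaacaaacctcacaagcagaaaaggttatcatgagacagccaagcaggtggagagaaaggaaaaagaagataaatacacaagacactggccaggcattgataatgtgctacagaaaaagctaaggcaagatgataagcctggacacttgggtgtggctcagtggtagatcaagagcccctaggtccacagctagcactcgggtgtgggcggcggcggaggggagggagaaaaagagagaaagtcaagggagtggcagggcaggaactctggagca
Ctsk: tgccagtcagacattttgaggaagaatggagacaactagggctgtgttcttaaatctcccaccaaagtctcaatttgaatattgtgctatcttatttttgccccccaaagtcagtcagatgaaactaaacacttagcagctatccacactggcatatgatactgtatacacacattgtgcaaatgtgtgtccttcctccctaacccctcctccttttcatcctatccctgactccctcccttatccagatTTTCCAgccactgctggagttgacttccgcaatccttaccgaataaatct

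The 5 motifs below were searched on both strands of the 6 windows of Acp5, Ctsk and Calcr. The NFAT core TGGAAA occurred at position 134 of the first Acp5 window and at position 251 of the Ctsk window, counted from the 5′ end, and in no other window of these genes. It occurred in 21.4% of all 32851 mouse windows. The AP-1 motif TGANTCA (7.81% of all windows), the E-box CACGTG (7.15%), the Ets motif GGAAGTG (11.0%) and the TATA box TATAAA (13.6%) had no match in the 6 windows. A match describes letters and not a site in use. Reads from the 3′ end cannot tell which of the 3 Acp5 starts the cells used.

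The libraries held 38464, 30831, 21669 and 22539 barcodes, of which 29076, 24030, 19827 and 20669 were kept as cells with 200 to 5500 genes, at most 30000 UMIs and at most 10% mitochondrial UMIs. The median kept cell had 11316, 10712, 5725 and 5851 UMIs, so the diet libraries were about as deep as each other and deeper than the surgery libraries. Between the 2 diet libraries 348 barcodes were shared, and 130 between LNR and sham. Cells were grouped by clustering in which none of the 7 genes was used, and clusters were named from marker genes, as in "keratinocyte-like". Between 11.8% and 15.5% of cells lay in clusters that could not be named. A level is in CPM, the UMIs of a gene scaled to the summed UMIs of its class, with an exact 95% Poisson interval that covers counting error only.

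At least 1 UMI of the 7 genes was found in 12566, 10087, 8248 and 8342 cells, which was 43.2%, 42.0%, 41.6% and 40.4% of the kept cells. Acp5 gave 14020, 11218, 7078 and 8255 UMIs and Ctsk 23421, 17141, 14007 and 11909. Mmp9 gave 575, 283, 929 and 909 UMIs, Atp6v0d2 462, 355, 201 and 184, and Dcstamp 556, 372, 56 and 43. Ocstamp gave 37, 27, 13 and 34. Calcr gave 9, 8, 0 and 1, and the count of 0 allows up to 0.0210 CPM. The first 2 genes thus gave most of the UMIs, and Ocstamp and Calcr were too rare for any comparison between classes.

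Cells with the whole osteoclast program were few. Osteoclast-like cells were defined without the 7 genes, by UMIs of at least 2 of Oscar, Siglec15, Slc9b2, Rufy4 and Tm4sf19 together with Tyrobp or Fcer1g, and 2, 2, 1 and 3 cells met this. The deepest of them in the SAR131675 diet library held 242 UMIs of Acp5, 774 of Ctsk, 114 of Mmp9, 89 of Atp6v0d2, 10 of Ocstamp, 8 of Dcstamp and 2 of Calcr among its 27461 UMIs. It was the only kept cell of the 4 libraries with all 7 genes. The cell that met the rule in LNR held 1 UMI of the 7 genes, and 1 of the 2 in the control diet held none. Osteoclast-like cells held 2.85%, 1.16%, 0.0141% and 5.44% of their library's Acp5 UMIs. In the SAR131675 diet, control diet and sham libraries they held 3.68%, 2.36% and 5.12% of the Ctsk UMIs and 21.4%, 15.9% and 26.0% of the Mmp9 UMIs, and the LNR cell held no UMI of either. They were left out of all classes below. Some cells outside the rule also carried several of the genes. Of the 5, 3, 4 and 10 kept cells that held at least 4 of the 7, 2, 1, 0 and 3 were osteoclast-like. Some values that rest on the others are given with and without them, a comparison added after the data were seen.

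Most Acp5 UMIs of the kept cells lay in the epidermis. In LNR and sham this did not hold when no upper limits were set on cells. Keratinocyte-like cells of all layers held 73.4%, 76.4%, 56.2% and 52.9% of the library's Acp5 UMIs. These cells also held most UMIs of all genes in each library, so a high share alone does not mean a high level. Their part of Acp5 was somewhat above their part of all UMIs in the diet libraries and LNR, and below it in sham. Their level was 46.5 CPM (45.6 to 47.4; 10285 UMIs in 16957 cells), 46.9 CPM (45.9 to 47.9; 8573 UMIs in 14619 cells), 53.0 CPM (51.4 to 54.7; 3980 UMIs in 7966 cells) and 53.0 CPM (51.5 to 54.6; 4364 UMIs in 9195 cells). Macrophage-like cells, the lineage that gives rise to osteoclasts, had 23.7, 23.8, 33.7 and 28.5 CPM with upper bounds of 27.9, 28.6, 41.1 and 35.9. This order rested in the diet libraries on leaving out the osteoclast-like cells, since with them the macrophage-like level was 87.0 and 50.3 CPM, above that of the epidermis. The 5 macrophage markers C1qa, C1qb, C1qc, Adgre1 and Mrc1 summed to 4.56, 3.46, 10.9 and 6.55 CPM in keratinocyte-like cells, against 13940, 15100, 14838 and 14926 CPM in macrophage-like cells, and none of the 5 was at 0. In sebaceous-like cells they summed to 2.46, 1.55, 7.16 and 33.9 CPM.

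**Figure D1:**
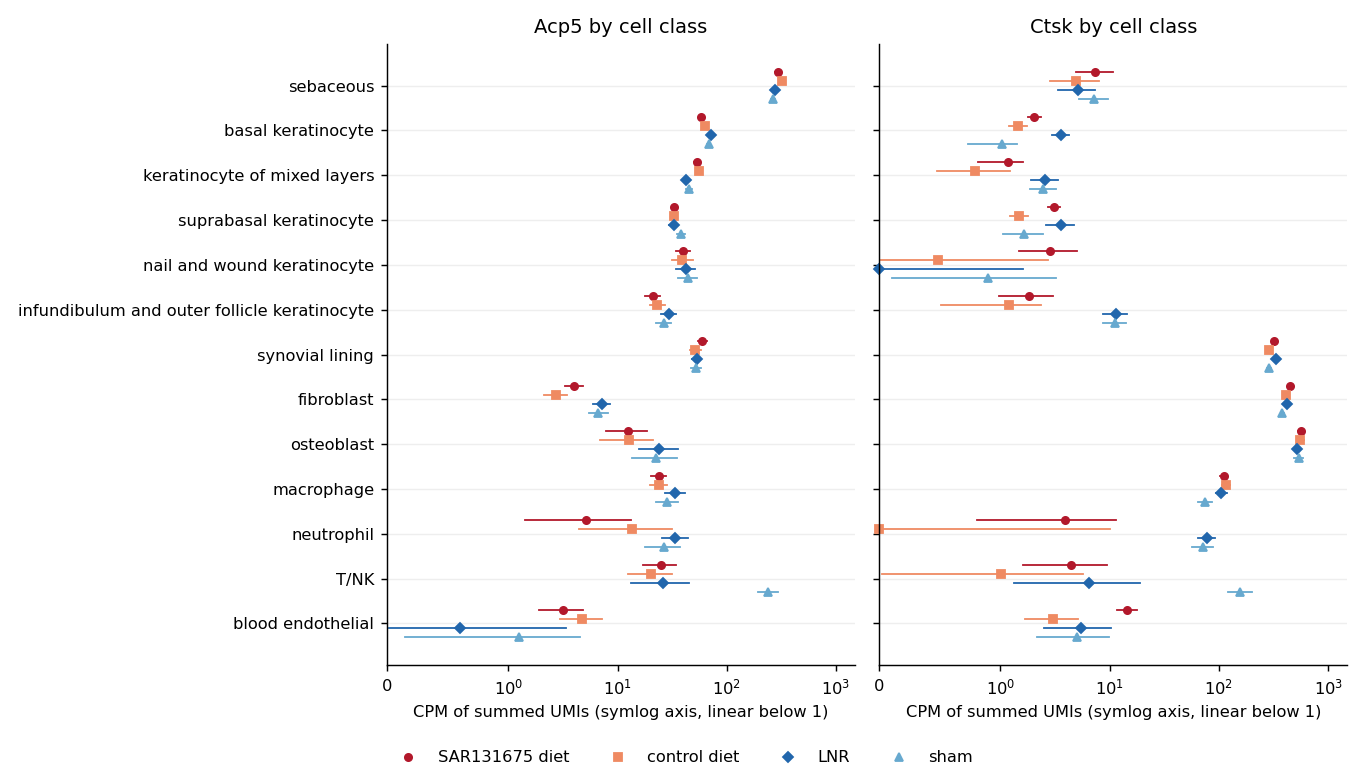
Level of Acp5 (left) and Ctsk (right) in 13 cell classes of the SAR131675 diet, control diet, LNR and sham libraries, in CPM of the UMIs summed over the class, on an axis that is linear below 1 and logarithmic above. Points are single libraries and bars are exact 95% Poisson intervals for counting error. Acp5 was highest in sebaceous cells, at 266 to 318 CPM, and Ctsk in osteoblasts, fibroblasts and synovial lining cells, at 288 to 560 CPM; the sham T/NK point of 240 CPM for Acp5 was 75.0 without the cells with 4 or more of the 7 genes.

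Within the epidermis Acp5 differed between the layer classes. Basal keratinocyte-like cells, which attach to the basement membrane and divide, had 58.5, 63.4, 71.0 and 68.2 CPM. Suprabasal cells, which have left that layer, had 32.9, 33.0, 32.7 and 38.2 CPM, and the intervals of these classes did not overlap in any library. Nail and wound keratinocyte-like cells had 39.9, 39.3, 42.2 and 44.1 CPM. Cells of the infundibulum and outer follicle had 20.9, 23.2, 29.5 and 26.5 CPM. The lowest class was the granular layer, the last living layer below the cornified surface, which formed a class in the diet libraries only and had 5.43 and 5.94 CPM.

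Single clusters within the epidermis ranged wider than the layers, and the layers overlapped. Basal clusters of at least 50 cells ran from 26.7 to 119, 23.1 to 130, 25.0 to 174 and 26.5 to 153 CPM, and suprabasal clusters from 9.34 to 51.5, 9.45 to 55.5, 27.0 to 39.8 and 38.1 to 38.5 CPM. There were 28 keratinocyte-like clusters in the diet libraries and 17 in the surgery libraries, and over those of at least 50 cells Acp5 ran from 5.43 to 119 CPM, 5.94 to 130 CPM, 10.99 to 174 CPM and 14.2 to 153 CPM. The highest cluster in each pair was a basal one of the same kind. It was led in the diet libraries by Pparg, Akr1c18, Clca3a2, Avpr1a and Oxtr, and in the surgery libraries by Akr1c18, Gsta3, Pparg, Oxtr and Psph. Pparg is a regulator of lipid genes, and Plin2, a lipid droplet protein, was a leading gene of both. This cluster was singled out after its values were seen.

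Sebaceous-like cells, which fill with lipid and burst to release sebum, had the highest Acp5 level of any named class other than the osteoclast-like cells. It was 294 CPM (276 to 312; 1073 UMIs in 241 cells), 318 CPM (299 to 338; 1026 UMIs in 275 cells), 277 CPM (263 to 292; 1471 UMIs in 280 cells) and 266 CPM (253 to 279; 1642 UMIs in 352 cells). The level was 6.23 to 8.30 times that of all other kept cells of the library. These cells made up a small part of each library but held 7.65%, 9.15%, 20.8% and 19.9% of its Acp5 UMIs. At a coarser clustering (Leiden resolution 0.7) the class took in 750 and 679 cells of the diet libraries and its level there was 182 and 206 CPM, with 281 and 271 CPM in LNR and sham. Ctsk in sebaceous-like cells was 7.39, 4.96, 5.08 and 7.13 CPM, and Mmp9 gave 0 UMIs in all 4 libraries, which allows up to 0.821, 0.930, 0.565 and 0.486 CPM.

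Acp5 was spread over many epidermal cells, with few UMIs in each. Among keratinocyte-like cells 6629, 5418, 2608 and 3021 held Acp5, and 4181, 3381, 1748 and 2109 of these held exactly 1 UMI. The top 1% of cells held 7.90%, 8.50%, 12.035% and 9.92% of the class's Acp5 UMIs, and the highest cell held 10, 19, 52 and 12. A UMI of the myeloid genes Tyrobp, Fcer1g or Lyz2 was found in 6.25%, 3.41%, 6.90% and 5.06% of the keratinocyte-like cells with Acp5 and in 5.25%, 3.66%, 6.53% and 4.45% of those without. Cells with Acp5 were deeper, at a median of 14658, 14249, 9668 and 9393 UMIs against 11063, 10401, 7638 and 7104.

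To compare classes at equal depth, each cell was thinned to 2000 UMIs and shallower cells were left out. Acp5 was then found in 8.46%, 9.11%, 9.60% and 10.4% of keratinocyte-like cells (39.1%, 37.1%, 32.7% and 32.9% before thinning, at median depths of 12684, 12187, 8322 and 8022 UMIs; 525, 1035, 155 and 306 cells left out). In sebaceous-like cells it was found in 36.6%, 40.5%, 38.9% and 38.3% (66.4%, 57.1%, 82.9% and 78.7% before thinning, at 17218, 11996, 19949 and 18870 UMIs; 25, 80, 10 and 28 left out). Blood endothelial-like cells, which should lack the gene, gave 0.160%, 0.616%, 0.274% and 0.292% (2.83%, 3.08%, 0.226% and 0.448% before thinning, at 8230, 7252, 3218 and 2971 UMIs; 82, 98, 77 and 103 left out). T/NK-like cells, the second reference, gave 4.39%, 3.40%, 4.21% and 4.41% (11.4%, 10.6%, 5.32% and 5.56% before thinning, at 5470, 5471, 2008 and 1862 UMIs; 15, 14, 93 and 94 left out). The intervals of keratinocyte-like and blood endothelial-like cells did not overlap in any library. Those of keratinocyte-like and T/NK-like cells did not overlap in the control diet and did in the other 3. Macrophage-like cells gave 3.13%, 4.19%, 3.46% and 4.75%.

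The T/NK-like level of Acp5 itself rested in sham on a few cells. It was 24.8, 20.4, 25.9 and 240 CPM, with 100 UMIs in 9 of 162 sham cells, and 1 of those cells held 66 of Acp5, 53 of Ctsk and 6 of Atp6v0d2. Without cells that carried 4 or more of the 7 genes the sham value was 75.0 CPM. In fibroblast-like cells, the main Ctsk class, Acp5 was 4.01, 2.71, 7.16 and 6.70 CPM, and in blood endothelial-like cells 3.14, 4.78, 0.603 and 1.25 CPM.

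In the joint and at the bone surface Acp5 also differed between classes. Synovial lining-like cells, which line the joint and secrete lubricin, had 59.9, 51.6, 53.2 and 52.5 CPM, close to the epidermal level. Thinned to 2000 UMIs, 12.6%, 9.28%, 6.08% and 6.85% of them held Acp5. Osteoblast-like cells, which build bone, had 12.4, 12.6, 24.1 and 22.5 CPM from 22, 14, 25 and 19 UMIs. Erythroid-like cells formed a class in the diet libraries only, with 41.1 and 45.7 CPM.

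Clusters that could not be named held further Acp5. In the diet libraries a cluster led by Tspear, Igfbp3, Sox6 and Lgr6, genes of the hair follicle and of basal epidermis, had 67.7 and 69.1 CPM with 5.43% and 4.62% of all Acp5 UMIs. Among the surgery libraries, the cluster led by Cd74, H2-Aa, Il1b, Ccr2 and Plac8 had 140 CPM in LNR and 49.97 CPM in sham. In LNR 205 UMIs lay in 46 of 363 cells and 55 of them in 1 cell, which held none of the other 6 genes. Without cells of 4 or more members the values were 130 and 36.7 CPM. A cluster led by Krt71, S100a3 and Krt25 held 5 cells in LNR and 394 in sham, where Acp5 was 60.1 CPM. Of these genes Krt71 and Krt25 are keratins of the inner root sheath of the hair. Inner root sheath-like cells, a named class of the diet libraries, had the lower levels of 16.0 and 15.1 CPM in 1103 and 409 cells.

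**Figure D2:**
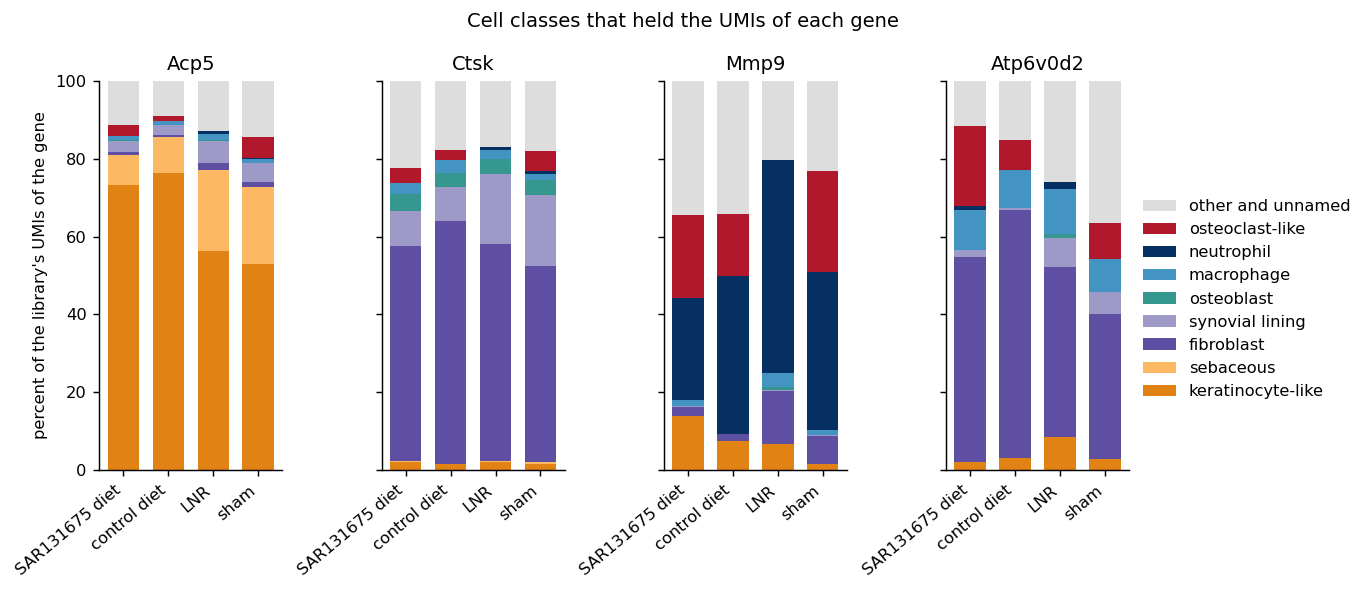
Share of the UMIs of Acp5, Ctsk, Mmp9 and Atp6v0d2 that fell into each cell class, as percent of the library's UMIs of that gene, for the SAR131675 diet, control diet, LNR and sham libraries. Each bar adds up to 100 percent. Keratinocyte-like cells held 52.9 to 76.4 percent of Acp5 and also most UMIs of all genes in each library. Fibroblasts held 50.6 to 62.6 percent of Ctsk and a much smaller part of all UMIs.

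Ctsk was a connective tissue gene in these digits. Fibroblast-like cells held 55.3%, 62.6%, 55.9% and 50.6% of its UMIs, at 448 CPM (441 to 456), 415 CPM (407 to 423), 421 CPM (412 to 431) and 381 CPM (371 to 390). Osteoclast-like cells apart, osteoblast-like cells had the highest level of a named class, at 560, 556, 522 and 538 CPM, and synovial lining-like cells had 319, 288, 334 and 290 CPM. Tendon-like cells, a class of the surgery libraries, had 144 and 129 CPM. Macrophage-like cells had 111, 117, 105 and 74.1 CPM, and with osteoclast-like cells left in 247 and 199 CPM in the diet libraries. Keratinocyte-like cells had 2.26, 1.33, 3.77 and 2.30 CPM, below the 14.4, 3.04, 5.43 and 5.00 CPM of blood endothelial-like cells. In the SAR131675 diet library 41 of the 92 endothelial UMIs came from 1 cell, and without it the level was 8.02 CPM.

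Thinning left the same picture for Ctsk. At 2000 UMIs it was found in 47.0%, 46.0%, 44.2% and 41.3% of fibroblast-like cells, 57.2%, 54.7%, 58.9% and 58.0% of osteoblast-like cells and 39.6%, 39.4%, 42.4% and 40.3% of synovial lining-like cells. In macrophage-like cells the share was 8.45%, 8.71%, 7.55% and 5.63%. In keratinocyte-like cells it was 0.383%, 0.405%, 0.384% and 0.315%, no more than counting error allows for blood endothelial-like cells, which gave 1.76%, 0.411%, 1.10% and, in sham, 0 of 343 cells, which allows up to 0.875%. Before thinning the shares were 81.5%, 78.7%, 58.6% and 55.1% of fibroblast-like cells at median depths of 10343, 9448, 3735 and 3638 UMIs.

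Fibroblast-like clusters differed in Ctsk. The cluster led by Dkk2, Crabp1 and Coch in the diet libraries had 722 and 675 CPM, and its counterpart in the surgery libraries, led by Mfap4, Dkk2 and Crabp1, had 804 and 757 CPM. A cluster led by Mmp13, Timp1 and Tnn, genes of matrix turnover after injury, had 698 and 735 CPM in LNR and sham. The lowest fibroblast-like cluster in the diet libraries was led by Inmt, C3 and Comp, at 308 and 286 CPM, and in the surgery libraries by Eln and Rbp4, at 198 and 154 CPM. The highest Ctsk level in the diet libraries was in a cluster that could not be named, led by the matrix genes Col11a1, Lrrc15 and Tnn. It had 965 CPM in 260 cells and 1192 CPM in 124 cells, with Ctsk in 93.5% and 94.4% of them. These clusters were singled out after their values were seen.

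The balance of Acp5 and Ctsk within a library differed widely between classes. Summed over the few osteoclast-like cells, there were 0.465, 0.321 and 0.736 Acp5 UMIs per Ctsk UMI in the SAR131675 diet, control diet and sham libraries. Single cells differed. On SAR131675 1 cell held 242 Acp5 and 774 Ctsk UMIs and another 158 and 87. In sham 1 cell held 112 and 306 and another 252 and 199. The control diet value came from 1 cell. Keratinocyte-like cells held 20.5 (18.8 to 22.5), 35.1 (30.9 to 40.1), 14.1 (12.5 to 15.9) and 23.1 (19.96 to 26.9). Sebaceous-like cells held 39.7, 64.1, 54.5 and 37.3. Fibroblast-like cells held 0.00895, 0.00653, 0.0170 and 0.0176, and osteoblast-like cells 0.0222, 0.0227, 0.0461 and 0.0419. Synovial lining-like cells lay between these at 0.188, 0.179, 0.159 and 0.181, and macrophage-like cells at 0.214, 0.204, 0.320 and 0.385. The intervals of the epithelial, macrophage-like and fibroblast-like classes did not overlap in any of the 4 libraries. Those of synovial lining-like and macrophage-like cells overlapped in both diet libraries. Ctsk in keratinocyte-like cells was below its level in blood endothelial-like cells, and the part of background UMIs in their ratio was not tested.

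**Figure D3:**
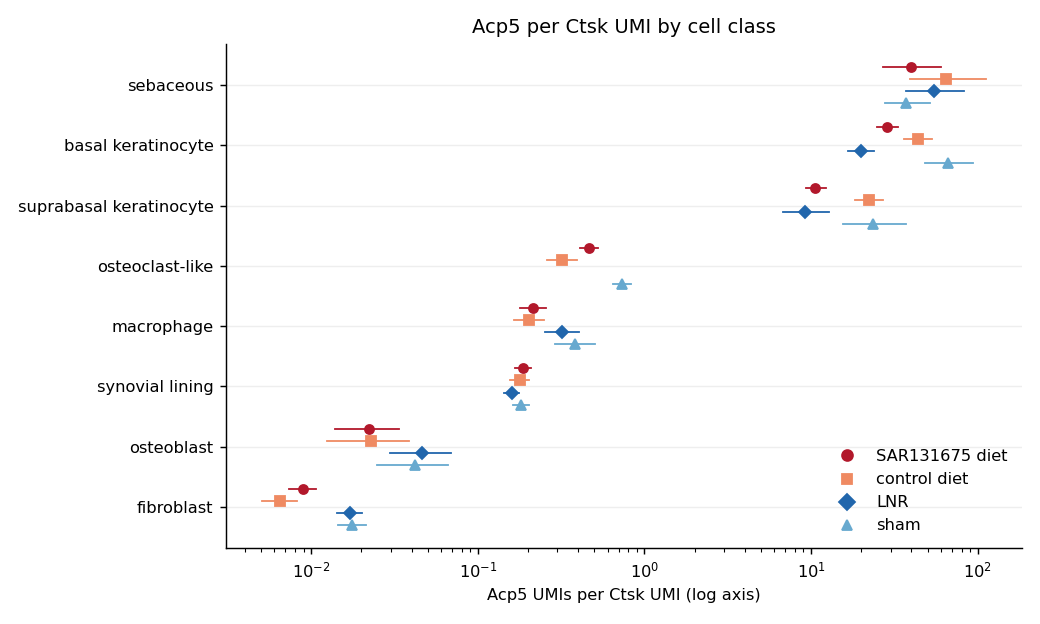
Acp5 UMIs per Ctsk UMI (log axis) in 8 cell classes of the SAR131675 diet, control diet, LNR and sham libraries, with exact conditional 95% intervals for counting error. The ratio lay between 37.3 and 64.1 in sebaceous cells and between 0.00653 and 0.0176 in fibroblasts. Summed over the few osteoclast-like cells of the SAR131675 diet, control diet and sham libraries, it lay between 0.321 and 0.736.

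Mmp9 was highest in neutrophil-like and Langerhans-like cells. Neutrophil-like cells had 195 CPM (165 to 228; 150 UMIs in 177 cells), 313 CPM (258 to 376; 115 UMIs in 97 cells), 314 CPM (287 to 342; 509 UMIs in 389 cells) and 315 CPM (283 to 349; 368 UMIs in 299 cells). They held 26.1%, 40.6%, 54.8% and 40.5% of the library's Mmp9. In the surgery libraries this class joined unlike clusters. The cluster led by S100a9, S100a8 and Ngp had 774 and 764 CPM in 256 and 212 cells, and the cluster led by Cxcl2, S100a9 and S100a8 had 117 and 91.0 CPM in 133 and 87 cells, so the class levels of LNR and sham depend on how these were pooled. The diet libraries had 1 neutrophil-like cluster. Langerhans-like cells, the dendritic cells of the epidermis, were a class in the surgery libraries only and had 161 and 178 CPM. In the diet libraries the unnamed cluster led by Cd74, H2-Aa and Cd207 had 36.7 and 27.8 CPM and held 32.5% and 31.4% of the UMIs. Cd207 is langerin, which Langerhans cells carry. After thinning, Mmp9 was found in 29.2%, 48.8%, 31.3% and 28.1% of neutrophil-like cells (43.5%, 53.6%, 47.0% and 40.5% before, at median depths of 2599, 2463, 1652 and 1500 UMIs).

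In the epidermis a large part of the Mmp9 lay in single cells in 3 of the libraries. Keratinocyte-like cells had 0.362, 0.115, 0.839 and 0.182 CPM from 80, 21, 63 and 15 UMIs. In the SAR131675 diet library 56 of the 80 lay in 1 basal cell of 26862 UMIs that held none of the other 6 genes and no UMI of Tyrobp. In the control diet 16 of the 21 lay in 1 cell that also held 19 UMIs of Acp5, 12 of Ctsk and 4 of Atp6v0d2. In LNR 30 lay in a cell with 6 of the 7 genes (52 UMIs of Acp5 and 66 of Ctsk) and 21 in a nail and wound cell without Tyrobp, whereas in sham each of 15 cells held 1. Fibroblast-like cells had 0.450, 0.193, 6.73 and 4.11 CPM. In the surgery libraries 117 of the 125 and 62 of the 65 UMIs lay in the cluster led by Mmp13, Timp1 and Tnn, at 52.7 and 39.7 CPM, in 16 of 262 and 5 of 215 cells. The highest cell held 38 UMIs in LNR and 41 in sham, and both held no Acp5 and no UMI of Tyrobp. An unnamed cluster led by H2-Eb1, Cd74 and Cd207 had 35.5 and 34.7 CPM, with Mmp9 in 21 of 78 and 27 of 106 cells.

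**Figure D4:**
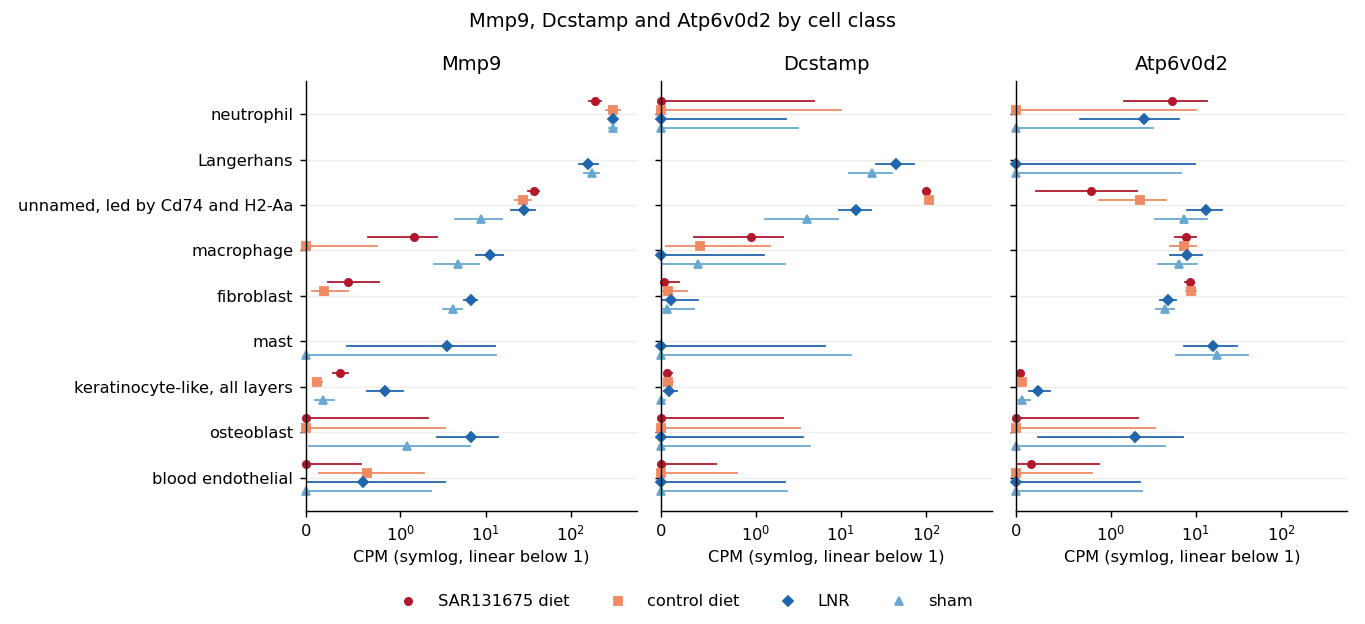
Level of Mmp9, Dcstamp and Atp6v0d2 in CPM of the UMIs summed over the class, on an axis that is linear below 1 and logarithmic above, with exact 95% Poisson intervals; the unnamed row is the cluster led by Cd74 and H2-Aa of each pair, and Langerhans and mast cells were classes in the surgery libraries only. Neutrophils had 195 to 315 CPM of Mmp9, the unnamed diet cluster 101 and 109 CPM of Dcstamp, and fibroblasts 4.36 to 8.74 CPM of Atp6v0d2.

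The fibroblast-like class held the largest part of the Atp6v0d2 of a named class. It held 52.6%, 63.7%, 43.8% and 37.5% of its UMIs, at 8.40 CPM (7.38 to 9.53), 8.74 CPM (7.64 to 9.96), 4.74 CPM (3.80 to 5.83) and 4.36 CPM (3.39 to 5.52). Only 86 of 2830, 82 of 2700, 66 of 4454 and 54 of 3964 cells held it, and the top 1% of cells held 65.0%, 70.8%, 76.1% and 79.7% of the class's UMIs. The cluster led by Myoc, Igfbp5 and Adgrd1 in the diet libraries had 20.6 and 19.5 CPM, and the cluster led by Pi16, Myoc and Ccn3 in the surgery libraries had 10.4 and 10.0 CPM. A UMI of the 3 myeloid genes was found in 4.65%, 1.22%, 4.55% and 1.85% of the Atp6v0d2-positive cells and in 6.60%, 5.23%, 5.81% and 5.01% of the other fibroblast-like cells. Macrophage-like cells had 7.65, 7.19, 7.84 and 6.34 CPM, with 35, 28, 23 and 16 positive cells. Mast-like cells, a class of the surgery libraries, had the higher levels of 16.0 and 17.7 CPM, from 9 UMIs in 7 cells and 5 UMIs in 4 cells. T/NK-like cells of sham had 33.6 CPM from 14 UMIs in 5 cells, and 10.3 CPM without cells of 4 or more members. Keratinocyte-like cells had 0.0407, 0.0602, 0.226 and 0.0607 CPM.

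In the diet libraries the fusion gene Dcstamp was gathered in a cluster with genes of antigen presentation. There 516 and 348 UMIs, or 92.8% and 93.5% of the library's Dcstamp, lay in the cluster led by Cd74, H2-Aa and Cd207, at 101 and 109 CPM in 97 of 579 and 80 of 386 cells. In the surgery libraries it was spread wider. Langerhans-like cells had 44.9 and 23.4 CPM from 17 and 13 UMIs, or 30.4% and 30.2% of the library's Dcstamp. The unnamed cluster led by Cd74, H2-Aa and Il1b held 22 and 5 UMIs, or 39.3% and 11.6%, and in sham 7 more lay in the cluster led by H2-Eb1, Cd74 and Cd207. Dcstamp takes its name from dendritic cells, in which it was described. Keratinocyte-like cells had 0.0678, 0.0766 and 0.0799 CPM and, in sham, 0 UMIs, which allows up to 0.0364 CPM. In the SAR131675 diet library 10 of the 15 UMIs lay in 1 cell. In LNR 4 of the 6 lay in the cell with 6 of the 7 genes, and without cells of 4 or more members its level was 0.0133 CPM. Ocstamp did not reach 20 UMIs in any class of any library.

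Against all other kept cells, 5 of the 7 genes had at least 20 UMIs in each library and could be set beside the other genes of the files. Among 17427 such genes, 6.57% were at least 2-fold higher in sebaceous-like cells in all 4 libraries, and of the 5 this held for Acp5. In basal keratinocyte-like cells 4.32% of genes passed and 0 of the 5, since Acp5 was 1.81, 1.88, 1.66 and 1.47 times the level of other cells. In fibroblast-like cells 14.3% of genes passed and 2 of the 5, Ctsk at 8.48 to 16.6 times and Atp6v0d2 at 5.21 to 21.0 times. In osteoblast-like cells 8.18% of genes passed and 1 of the 5, Ctsk at 5.50 to 9.12 times. In macrophage-like cells 11.5% of genes passed and 1 of the 5, Atp6v0d2 at 6.16 to 7.99 times. The 5 genes were chosen for such patterns, so nothing is read from these counts.

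The wider osteoclast apparatus was followed with a list of 40 genes: the pump and chloride channel that acidify the resorption space, lysosomal and matrix proteases, receptors with their adaptors, and transcription factors. Of the 39 with at least 20 UMIs in each library, 0 were at least 2-fold higher than in other cells in all 4 libraries in basal keratinocyte-like cells, beside 4.32% of all genes, and 0 in sebaceous-like cells, beside 6.57%. Acp5 itself did not reach this fold in basal cells, so the count there does not say whether the list followed it. The nearest in sebaceous-like cells was Tnfrsf11a, the receptor RANK, at 28.2, 29.8, 13.6 and 15.6 CPM, which was 1.95, 1.92, 1.71 and 2.39 times the other cells, a gene named after its values were seen. In macrophage-like cells 22 of the 39 passed, or 56.4% beside 11.5% of all genes, among them the pump subunit Tcirg1 at 6.36 to 7.54 times, the receptor Csf1r at 83.7 to 180 times and the transcription factor Spi1 at 34.5 to 73.1 times.

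In fibroblast-like cells 8 of the 39 passed, or 20.5% beside 14.3% of all genes: the proteases Ctsb, Ctsl, Ctsz, Mmp14 and Mmp2, the phosphatase Acp2, the integrin Itgb3 and the transcription factor Mitf. Mmp2, a gelatinase, was 12.4 to 15.9 times and Itgb3, which osteoclasts use to attach to bone, 9.88 to 16.3 times the level of other cells. In osteoblast-like cells 6 passed, or 15.4% beside 8.18%: Ctsl, Ctsz, Mmp14, Mmp2, Mmp13 and Acp2. Mmp13, a collagenase of bone-forming cells, had 1086, 1879, 3177 and 1348 CPM there. None of the list's acid secretion genes passed in either class.

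The genes whose levels ran most like those of each member over the named classes differed between members. Likeness was the Pearson correlation of log2(CPM + 1) over 20, 20, 21 and 21 classes, averaged over the 4 libraries, among 13213 genes with at least 200 UMIs in every library. The classes of a library share its depth, so it is a description. Nearest to Acp5 were Nme1 (0.79), Pgls (0.75), Psph (0.74), Wdr18 (0.74) and Tomm5 (0.73), among them the nucleotide kinase Nme1 and the serine synthesis enzyme Psph. Among the nearest to Ctsk were Olfml3 (0.91), Dnm1 (0.90), Pcolce (0.89) and B3gnt9 (0.88), of which Pcolce enhances the processing of procollagen. Mmp9 ran with Arih2 (0.87), Nlrp3 (0.86), Clec7a (0.86), Ccr1 (0.81) and Themis2 (0.81), of which Nlrp3 and Clec7a are innate immune sensors. Genes that ran with Atp6v0d2 included Ccl7 (0.74), Pou2f2 (0.74), Il1rl1 (0.72) and Emilin2 (0.71). The other 3 members had fewer than 100 UMIs in a library and were not ranked.

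Between the diet libraries, the question was whether the VEGFR3 inhibitor went with other levels of these genes outside osteoclasts. A gene was called at a fold of 2 or more with at least 20 UMIs over both libraries, and folds are log2 ratios of CPM with exact intervals for counting error between these libraries and not the conditions. In keratinocyte-like cells Acp5 was 46.5 CPM on SAR131675 and 46.9 CPM on control diet, a log2 ratio of -0.013 (-0.054 to 0.029). Ctsk there was 2.26 against 1.33 CPM, a log2 ratio of 0.76 (0.54 to 0.99). Of its 501 and 244 UMIs, 144 and 41 lay in 1 suprabasal cluster of 298 and 390 cells, at 24.0 against 5.79 CPM. That cluster was singled out after its values were seen. Of the 5 members with enough UMIs 1 was called, beside 3.33% of all genes: Mmp9, at 1.65 (0.95 to 2.42), 56 of whose 80 UMIs came from the 1 basal cell described above. Without cells of 4 or more members it rested on 80 against 5 UMIs, at 3.72 (2.44 to 5.39), and without the highest cell of each library on 24 against 5, at 1.99 (0.57 to 3.73). In basal cells alone 1 of 3 members was called, beside 3.34% of genes, and this was again Mmp9, at 60 against 2 UMIs and 4 against 1 without the highest cells. Acp5 in basal cells was 58.5 against 63.4 CPM, at -0.12 (-0.17 to -0.06), an interval that leaves out 0.

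In sebaceous-like cells 0 of 2 were called, beside 4.28% of genes, and Acp5 was 294 against 318 CPM, a log2 ratio of -0.11 (-0.24 to 0.01). In fibroblast-like cells 0 of 3 were called, beside 3.12% of genes. Ctsk was 448 against 415 CPM, at 0.11 (0.07 to 0.15), Acp5 rested on 116 against 70 UMIs, at 0.57 (0.13 to 1.02), and Atp6v0d2 on 243 against 226, at -0.06 (-0.32 to 0.21). In osteoblast-like cells 0 of 2 were called, beside 4.71% of genes, with Ctsk at 0.01 (-0.14 to 0.16). In macrophage-like cells 0 of 3 were called, beside 3.83% of genes, with Acp5 at -0.01 (-0.37 to 0.36) and Ctsk at -0.07 (-0.24 to 0.09). In neutrophil-like cells Mmp9 alone had enough UMIs and was not called, beside 14.0% of genes, at 195 against 313 CPM and a log2 ratio of -0.68 (-1.04 to -0.32). Of the 5 neutrophil markers of that class 4 were also lower on SAR131675, S100a8 at 7671 against 14202 CPM, S100a9 at 12142 against 21897, Retnlg at 671 against 969 and Cxcr2 at 248 against 403, while Csf3r was 580 against 585, and their part in the result was not tested. In synovial lining-like cells 0 of 2 were called, beside 4.52% of genes, and in T/NK-like cells 0 of 1, beside 5.72%. In blood endothelial-like cells 1 of 2 was called, beside 4.11% of genes: Ctsk, at 92 against 14 UMIs and 2.25 (1.43 to 3.17), and 1.504 (0.60 to 2.51) without the highest cell of each library.

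Between LNR and sham the epidermal level of Acp5 was the same within counting error. It was 53.0 CPM in both, a log2 ratio of -0.0005 (-0.063 to 0.062), and in basal cells 71.0 against 68.2 CPM, at 0.06 (-0.02 to 0.14). Ctsk in keratinocyte-like cells was 3.77 against 2.30 CPM, at 0.71 (0.44 to 0.99), and 2.80 against 2.30 CPM without cells of 4 or more members. Of 4 members in this class 2 were called, beside 1.95% of genes. They were Mmp9 at 2.20 (1.37 to 3.12; 63 against 15 UMIs) and Atp6v0d2 at 1.90 (0.40 to 3.69; 17 against 5 UMIs). Without cells of 4 or more members Mmp9 was 0.386 against 0.182 CPM, at 1.08 (0.14 to 2.09), and Atp6v0d2 0.133 against 0.0607 CPM, at 1.13 (-0.55 to 3.03). Of the 29 LNR Mmp9 UMIs that this left, 21 lay in the nail and wound cell. When the highest of the remaining cells was also left out in each library, the direction turned for Mmp9, at 8 against 14 UMIs and -0.67 (-2.13 to 0.68), and Atp6v0d2 was 5 against 4 UMIs. In basal cells alone 2 of 3 were called, beside 1.81% of genes. Ctsk was at 124 against 39 UMIs and 1.80 (1.27 to 2.35), and Mmp9 at 34 against 7. The cell with 6 of the 7 genes held 66 and 30 of these UMIs, and without cells of 4 or more members Ctsk was at 0.70 (0.09 to 1.33) and Mmp9 at 4 against 7 UMIs.

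In sebaceous-like cells 0 of 2 were called, beside 2.56% of genes, and Acp5 was 277 against 266 CPM, at 0.06 (-0.04 to 0.16). In fibroblast-like cells 0 of 4 were called, beside 1.84% of genes, with Ctsk at 0.15 (0.10 to 0.20), Mmp9 at 0.71 (0.27 to 1.17) and Atp6v0d2 at 0.12 (-0.35 to 0.60). In osteoblast-like cells 0 of 2 were called, beside 4.36% of genes, with Ctsk at -0.04 (-0.23 to 0.14). In macrophage-like cells 1 of 4 was called, beside 3.02% of genes: Mmp9, at 1.24 (0.25 to 2.33), with 30 of its 33 LNR UMIs in 1 cell. Without the highest cell of each library Mmp9 there was 3 against 9 UMIs, at -1.80 (-4.32 to 0.20). Ctsk in macrophage-like cells was 105 against 74.1 CPM, at 0.51 (0.24 to 0.78). Its UMIs lay in 72 of 824 LNR cells and 48 of 756 sham cells. The top 1% of cells held 46.0% and 50.8% of them, which the interval does not take into account. In neutrophil-like cells 0 of 3 were called, beside 6.11% of genes, with Mmp9 at -0.01 (-0.20 to 0.19). In synovial lining-like cells 0 of 3 were called, beside 2.94% of genes. In T/NK-like cells 2 of 2 were called lower in LNR, beside 6.85% of genes called either way: Acp5 at -3.21 (-4.21 to -2.34) and Ctsk at -4.59 (-6.91 to -2.98). Without cells of 4 or more members these were -1.54 (-2.64 to -0.52) and -2.14 (-4.62 to -0.22), the latter from 3 against 11 UMIs, and all 11 lay in 1 sham cell. Without the highest of the remaining cells Acp5 was at -0.99 (-2.29 to 0.24). In blood endothelial-like cells no member had enough UMIs, and 2.81% of genes were called.

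**Figure D5:**
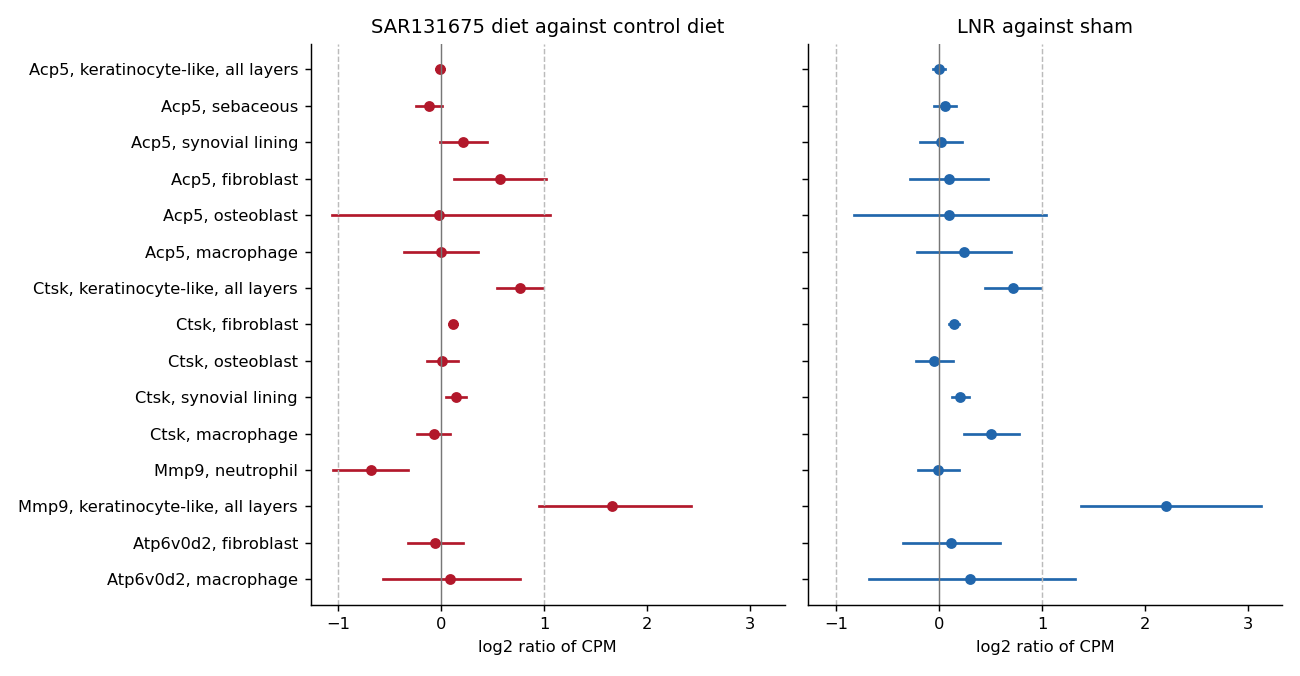
Log2 ratio of CPM between libraries for members in the classes that held them, SAR131675 diet against control diet (left) and LNR against sham (right), with exact conditional 95% intervals for counting error; dashed lines mark a fold of 2. Acp5 in keratinocyte-like cells lay at -0.013 and -0.0005, and the points past a fold of 2 were Mmp9 in keratinocyte-like cells, at 1.65 and 2.20.

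Genes of the osteoclast list were also set between the libraries. In keratinocyte-like cells 1 of 39 genes was called higher and 0 lower on SAR131675, and 3 of 38 higher and 0 lower in LNR. These were 2.56% and 7.89% of the list, beside 3.33% and 1.95% of all genes, with median log2 ratios of 0.0061 and 0.027 beside -0.0083 and -0.0036. Mmp13 was called in both, at 0.66 against 0.29 CPM and at 2.90 against 1.04 CPM. The 5 macrophage markers summed to 4.56 against 3.46 CPM and 10.9 against 6.55 CPM in keratinocyte-like cells, and their part was not tested. In fibroblast-like cells 3 of 36 were called higher on SAR131675 and 1 of 35 in LNR, or 8.33% and 2.86% beside 3.12% and 1.84%. The gene called in LNR was Mmp13, at 377 against 167 CPM. In osteoblast-like cells 0 of 27 and 2 of 25 were called, the latter 8.0% beside 4.36%, of which Mmp13 was 3177 CPM in LNR against 1348 CPM in sham. In sebaceous-like cells 3 of 27 were called higher on SAR131675, or 11.1% beside 4.28%. In LNR 3 of 32 were called lower there, or 9.38% beside 2.56%, and these were Ctss, Csf1r and Tyrobp at 10, 5 and 7 UMIs against 36, 23 and 24. The 5 macrophage markers summed to 7.16 CPM in LNR and 33.9 CPM in sham in this class, and their part was not tested. In macrophage-like cells 1 of 37 was called lower on SAR131675 and 1 of 36 higher in LNR, beside 3.83% and 3.02% of all genes.

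In synovial lining-like cells 4 of 31 genes of the list were called higher and 1 lower on SAR131675, or 16.1% beside 4.52%, and 5 of 33 higher and 1 lower in LNR, or 18.2% beside 2.94%. The protease Ctss, the adaptors Tyrobp and Fcer1g and the collagenase Mmp13 were called higher in both. Mmp13 was 4.83 against 0.956 CPM and 9.29 against 1.86 CPM, and Tyrobp rested on 21 against 4 and 67 against 25 UMIs. The 5 macrophage markers moved with them in this class, at 10.7 against 2.29 CPM and 21.8 against 10.9 CPM, and their part was not tested. In blood endothelial-like cells 0 of 36 were called higher and 3 lower on SAR131675, or 8.33% beside 4.11%. These were Car2, Csf1r and Spi1, at 19, 7 and 20 UMIs against 30, 21 and 32, and in LNR 0 of 29 were called. In neutrophil-like cells 2 of 26 were called higher on SAR131675, or 7.69% beside 14.0%, and 2 of 34 higher in LNR, or 5.88% beside 6.11%. In basal keratinocyte-like cells 0 of 37 were called on SAR131675 and 1 of 36 was higher in LNR, or 2.78% beside 1.81%. In T/NK-like cells 2 of 33 were called on SAR131675, or 6.06% beside 5.72%, and 2 of 21 higher and 4 lower in LNR, or 28.6% beside 6.85%, among them Spi1 at 8 against 40 UMIs. The macrophage markers there summed to 17.2 CPM in LNR and 31.2 CPM in sham, and their part was not tested.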

How the data were processed

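Gene-by-barcode matrices of UMI counts were deposited for 4 droplet libraries (10x Single Cell 3' v3), 1 per condition, each from pooled digits of 10 mice. The authors made these counts with Cell Ranger, version 6.1.2 per the labels, on GRCm39; the file headers give 6.1.2 for LNR and sham and 8.0.1 for both diet libraries. The study's Seurat, SCTransform and Harmony steps were not repeated here. Counts include barcodes of at least 500 UMIs, and the libraries summed to between 168507188 and 585284877 UMIs.

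Barcodes with 200 to 5500 genes, at most 30000 UMIs and at most 10% mitochondrial UMIs were kept. Each pair of libraries was clustered together with scanpy 1.11.5 (counts scaled to 10000 per cell, log values, 2000 variable genes chosen after taking out the 7 genes, class markers left in, 30 principal components, 20 neighbours, Leiden resolution 2), in Python 3.11.15 with numpy 2.4.6, scipy 1.17.1 and pandas 2.3.3. A cluster was named when its mean marker score was at least 0.3, no class of another lineage reached 0.75 of it or held more of its leading genes, and at least 3 markers were found in at least 5% of its cells. Osteoclast-like cells were taken out cell by cell. Scrublet called 4.55%, 1.01%, 6.00% and 8.12% of kept cells as doublets, fewer than the 23.3%, 19.2%, 15.9% and 16.5% expected at 0.8% per 1000 cells, so leaving them out removes a part of those expected; they stayed in the values above. UMIs were summed per library and class, and intervals are exact 95% Poisson, Clopper-Pearson or conditional binomial intervals. They cover counting error only, and a count of 0 is given the limit that 3 counts allow. A gene between libraries needed 20 UMIs and was called at a fold of 2. Ratios and their intervals were tested on simulated Poisson counts. These had no UMIs gathered in single cells, so that test says nothing about values that rest on 1 or a few cells.

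The genes, the 40-gene list, the markers and the comparisons were chosen with earlier results of these data known. All members, the list by its counts, and the 5 genes most like each member were to be named, though some results are not reported here; clusters named by their leading genes were chosen after their values were seen. Alternatives were: no upper limits on cells, Leiden resolution 0.7, marker gates in place of clusters, no cells with myeloid UMIs, no doublets and thinning to 1000 UMIs. Leaving out cells with 4 or more of the 7 genes, leaving in osteoclast-like cells and leaving out the highest cell, alone or together with the first, were chosen after seeing the data. The day of tissue collection is given differently in the sources and is not stated. No reference genome of the files' build was used.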

Additional observations from a re-analysis of the deposited data

Results flagged for a closer look

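Barcodes above the upper limits on genes or UMIs were left out of every main comparison and entered only the alternative without these limits. There were 6221, 4400, 523 and 513 of them. Among them 2 of the 7 genes were higher in the treated library with an interval that left out 0, which is why they are listed. The share of all genes that would pass this rule was not computed, so nothing is read from the count. The ratios pool all cell classes, and the part of the mix of classes was not tested. Ctsk was 33.1 CPM on SAR131675 (7951 UMIs) and 21.9 CPM on control diet (3902 UMIs), a log2 ratio of 0.60 (0.54 to 0.66). Calcr, the calcitonin receptor, was found in 15 UMIs against 1, a log2 ratio of 3.48 (0.78 to 8.88). In the diet libraries 3 and 7 of these barcodes were osteoclast-like, and 0 and 5 held at least 4 of the 7 genes. The other 5 genes were lower on SAR131675 there, from Acp5 at -0.11 (-0.15 to -0.08) to Ocstamp at -2.23 (-3.83 to -0.88). In LNR against sham no gene of these barcodes was higher with an interval that left out 0. Ctsk there was 37.8 against 55.4 CPM, at -0.55 (-0.68 to -0.43), Acp5 was at -0.37 (-0.45 to -0.28), Mmp9 at -0.60 (-0.79 to -0.41), Ocstamp at -1.18 (-2.13 to -0.30), Dcstamp at -2.34 (-4.08 to -0.92) and Atp6v0d2 at 0.09 (-0.73 to 0.92). No difference was tested, since each condition was 1 library.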

How the results depend on the processing

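No paired analysis was possible because each condition has 1 library, and no library could be left out. Of 70 alternative values of the main results, 49 moved by less than their interval and 21 moved further. Levels and shares have no direction, and the keratinocyte-like Acp5 ratios had intervals that held both signs, so turns were not counted. No osteoclast-like cell was keratinocyte-like, so leaving them in could not move keratinocyte-like levels. Nor could leaving out cells of 4 or more members in the SAR131675 diet and sham libraries. Such unchanged values are no check. In other results directions did turn. Called Mmp9 between LNR and sham went from 1.24 to -1.80 (log2) in macrophage-like cells and from 2.41 to -0.46 in basal cells without the highest cell of each library, to -0.68 in basal cells without cells of 4 or more members, and from 2.20 to -0.67 in keratinocyte-like cells without both. With osteoclast-like cells left in, Acp5 in the diet libraries was higher in macrophage-like than in keratinocyte-like cells. The level of Acp5 in keratinocyte-like cells moved to 49.2 CPM (LNR) and 50.2 CPM (sham) with no upper limits on cells, and to 55.0 CPM (sham) by gates. The share of Acp5 UMIs in these cells became 66.2%, 66.3%, 45.5% and 42.3% with no limits, 86.3%, 85.4%, 62.2% and 62.2% by gates, and 68.8%, 73.7%, 51.5% and 50.1% without cells holding myeloid UMIs. With no limits the share was no longer a majority in LNR and sham. Without doublets it was 72.3% (SAR131675 diet), 54.9% (LNR) and 51.6% (sham), and at Leiden resolution 0.7 it was 75.3% (control diet), 54.1% (LNR) and 51.5% (sham). Of the single values, 140 moved and 234 did not. Among them sebaceous-like Acp5 in the diet libraries fell to 182 and 206 CPM at resolution 0.7, and with osteoclast-like cells left in, macrophage-like Ctsk rose to 247 and 199 CPM and Acp5 to 87.0 and 50.3 CPM in these libraries. Pooled digits, 1 library per condition and small classes limit every comparison, and intervals say nothing of differences between mice.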

Other observations

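Genes of connective tissue were found in 1 of the neutrophil-like clusters of the surgery libraries. The cluster led by Cxcl2, S100a9 and S100a8, with 133 cells in LNR and 87 in sham, had Ctsk at 106 and 103 CPM from 121 and 80 UMIs and Mmp2, a gelatinase of fibroblasts, at 292 and 115 CPM. In sham 37 of the 80 Ctsk UMIs lay in 1 cell. The larger cluster, led by S100a9, S100a8 and Ngp, had Ctsk at 8.24 and 7.71 CPM from 4 and 3 UMIs and Mmp2 at 12.4 and 46.3 CPM. The neutrophil-like cluster of the diet libraries had 3 UMIs of Ctsk on SAR131675, or 3.89 CPM, and 0 on control diet, which allows up to 8.16 CPM. The median cell held 7916 and 8034 UMIs in the first cluster and 1175 and 1160 in the larger one. The calprotectin gene S100a8 was at 9680 and 10194 CPM in the first cluster against 87628 and 94331 CPM in the larger one. The clusters were singled out after their values were seen, and the part of depth or of other cells in these levels was not tested.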
